A study of Mus musculus with 45 samples.

Results

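Guanylate-binding proteins (GBPs) are large GTPases whose genes are induced by interferons, above all by interferon gamma, and that attack intracellular microbes and the vacuoles that hold them. The mouse Gbp genes lie in 2 clusters, on chromosomes 3 and 5. Both clusters were followed in mouse hippocampus through H3K9ac, the acetyl mark on lysine 9 of histone H3 that is found at active regulatory DNA. All H3K9ac domains that overlap 142.1 to 142.4 Mb of chromosome 3 or 105.45 to 105.8 Mb of chromosome 5 (mm9) were taken, which gave 10 of the 44165 domains of the series, 8 on chromosome 3 and 2 on chromosome 5. Coordinates alone set the members, but the intervals themselves were selected on measured H3K9ac values of these data, and which comparison prompted the choice is not recorded. Values of disease model against control are therefore descriptions: calls of the genome-wide fit are printed beside the share of all domains called, and nothing is read from the calls as evidence.

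H3K9ac was measured by chromatin immunoprecipitation and sequencing in 23 libraries of 8 groups. Tau mice, transgenic for MAPT P301S and prone to tau aggregates, were set against wild type (WT) mice at 6 months (2 and 3 libraries, females) and 11 months (3 and 3 libraries, males), so age and sex changed together. Female CK-p25 mice, double transgenic animals with inducible p25, a fragment that overactivates Cdk5, were compared with CK control littermates 2 and 6 weeks after induction (3 libraries per group, aged 3.5 and 4.5 months). In this system the Camk2a promoter drives p25 in forebrain neurons, while for the tau transgene no promoter is named in the labels. The study asked which domains gain or lose H3K9ac in either disease model. Labels do not say that each library is a separate animal, so errors and calls reflect the spread between these libraries.

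In interferon biology, signalling from the receptors brings transcription factors to the promoters of induced genes. Known promoter elements are the interferon-stimulated response element (ISRE), tied mainly to type I interferon, and the gamma-activated site (GAS), tied to interferon gamma. Gbp genes are classical targets of both routes, and in brain they are known to be induced in microglia, astrocytes and endothelial cells under interferon.

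The RefSeq gene table at hand is for GRCm38.p6, another build than that of the domains, so it gives names and neighbours only and no domain was tied to a single gene. On chromosome 3 the order is Gbp5, Gbp7, Gbp3, Gbp2b, Gbp2 and the pseudogene Gbp2-ps. On chromosome 5 it is Gbp8, Gbp9, Gbp4, Gbp10, Gbp6 and the transcribed pseudogene Gbp11. Markers of hippocampal cell types and the list of interferon pathway genes could not be read for the same reason. In tissue chromatin, more cells carrying the mark and more mark per cell cannot be told apart. Gbp genes are close paralogs, and the sources used here do not give how reads matching several copies were treated, so reads may be shared between copies.

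RefSeq promoter sequences (GRCm38.p6; 250 bases before to 50 after the gene start) were at hand for the 5 protein-coding genes of the chromosome 3 cluster. They are shown because these genes give the chromosome 3 cluster its name and because each holds an ISRE. The ISRE was searched as GAAA, any 2 bases and GAAA again, on both strands (TTTC, any 2 bases and TTTC on the other). The GAS was searched as TTCNNNGAA, which reads the same on both strands. Capitals mark the ISRE matches. For Gbp3 a further start has a window of its own, which holds neither motif and is not shown.
Gbp5 (chr3:142496684-142496983, plus strand): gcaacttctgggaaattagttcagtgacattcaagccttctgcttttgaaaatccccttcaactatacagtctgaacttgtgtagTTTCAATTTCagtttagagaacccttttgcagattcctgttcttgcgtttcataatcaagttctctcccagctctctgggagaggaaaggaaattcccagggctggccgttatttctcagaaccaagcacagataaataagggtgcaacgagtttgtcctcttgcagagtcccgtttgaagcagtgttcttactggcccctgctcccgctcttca
Gbp7 (chr3:142530086-142530385, plus strand): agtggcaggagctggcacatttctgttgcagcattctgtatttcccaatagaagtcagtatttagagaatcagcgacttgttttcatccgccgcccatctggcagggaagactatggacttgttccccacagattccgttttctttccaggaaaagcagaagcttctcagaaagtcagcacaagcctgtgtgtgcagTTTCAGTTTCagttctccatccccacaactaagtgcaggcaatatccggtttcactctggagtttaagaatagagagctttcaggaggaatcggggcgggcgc
Gbp3 (chr3:142559794-142560093, plus strand): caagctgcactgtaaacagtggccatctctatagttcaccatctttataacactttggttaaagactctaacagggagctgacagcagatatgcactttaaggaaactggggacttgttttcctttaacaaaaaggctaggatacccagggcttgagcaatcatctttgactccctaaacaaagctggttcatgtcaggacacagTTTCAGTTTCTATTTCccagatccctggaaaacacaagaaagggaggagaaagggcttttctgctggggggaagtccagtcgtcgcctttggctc
Gbp2b (chr3:142594597-142594896, plus strand): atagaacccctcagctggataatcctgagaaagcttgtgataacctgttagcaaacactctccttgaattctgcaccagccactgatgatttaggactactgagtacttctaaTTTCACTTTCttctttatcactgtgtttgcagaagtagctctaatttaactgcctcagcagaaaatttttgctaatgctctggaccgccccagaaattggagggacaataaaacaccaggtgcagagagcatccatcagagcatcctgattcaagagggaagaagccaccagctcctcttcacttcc
Gbp2 (chr3:142620413-142620712, plus strand): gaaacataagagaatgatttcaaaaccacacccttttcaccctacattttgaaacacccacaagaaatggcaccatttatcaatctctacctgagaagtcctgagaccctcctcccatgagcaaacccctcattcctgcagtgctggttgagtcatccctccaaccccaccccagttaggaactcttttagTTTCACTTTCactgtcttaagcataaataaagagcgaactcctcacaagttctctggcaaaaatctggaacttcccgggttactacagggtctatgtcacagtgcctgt

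An ISRE was found in 5 of these 6 windows, at 1 or more starts of all 5 genes, against 3.44% of the 32851 promoter windows of the table. In Gbp2 and Gbp2b the matched letters were the same, TTTCACTTTC, beginning 59 and 137 bases before the start. In Gbp7 and Gbp3 they were TTTCAGTTTC, 53 and 45 bases before the start, and in Gbp3 a second match overlapped the first by 4 bases. In Gbp5, whose protein takes part in inflammasome activation, the match began 165 bases before the start. A GAS was found in the windows of Gbp5 and Gbp7, 2 in each, against 8.3% of all windows. A match is a description of letters and not a measured binding site.

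The 8 domains of chromosome 3 are named here by their identifiers in the deposited list, in order from peak7945 to peak7952. They are 250 to 2146 bp wide and lie at 26.7 domains per Mb, against 13.3 per Mb over the whole chromosome. The domains that carry most reads are peak7946 (142159225 to 142160962), peak7947 (142192733 to 142194343), peak7948 (142222665 to 142224810), peak7950 (142282889 to 142284187) and peak7952 (142363073 to 142364914). Narrow satellites follow closely on a pair of them: peak7949 lies 116 bp after peak7948, and peak7951 lies 191 bp after peak7950. On chromosome 5 the domains peak12184 (105538547 to 105539095) and peak12185 (105721875 to 105723016) lie at 5.71 per Mb, against 19.1 per Mb over the whole chromosome.

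Levels are CPM, domain reads scaled by library total and TMM factor, with each mouse model scaled on its own. Over all libraries the means ran from 2.36 CPM at peak7951 to 37.3 CPM at peak7952. Per kb of width, peak7952 at 20.2 CPM per kb and peak7947 at 19.3 CPM per kb were above 78.8% and 77.4% of all domains. The chromosome 5 domains were sparse: peak12185 held 6.55 CPM per kb, above 0.5% of all domains, and peak12184 held 8.14 CPM per kb, above 14.4%. All 10 domains passed the filter on low counts in both series. Tau series libraries held 4.10 to 6.18 M reads in all domains, with 538 to 1062 reads at the 10 Gbp domains. CK-p25 series libraries held 0.996 to 4.13 M, with 121 to 801 reads at these domains.

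At 11 months H3K9ac was higher in tau than in WT mice over most of both clusters. Summed over the 8 domains of chromosome 3 it was 145, 137 and 175 CPM in the tau libraries and 97.0, 99.8 and 100.6 CPM in the WT libraries. Summed over both domains of chromosome 5 it was 15.5, 10.9 and 20.2 CPM in tau against 8.73, 7.59 and 8.13 CPM in WT libraries. The groups did not overlap at either cluster. These sums had a log2 ratio of tau to WT of 0.62 and 0.93.

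Of the 10 domains, 6 were called higher and 0 lower at 11 months (edgeR adjusted p under 0.05 over all domains tested), where 4.40% of all 44105 domains tested were called higher and 7.56% lower. The groups did not overlap, with tau higher, at 8 of 10, against 11.2% of all domains. All 10 log2 changes were positive in this fit, with a median of 0.85 against 0.006 over all domains, but peak7945 and peak7952 turned negative with the covariate described below.

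The largest change among the called domains was at peak7950 on chromosome 3. Its levels were 21.7, 20.1 and 27.0 CPM in tau and 11.2, 10.7 and 7.48 CPM in WT libraries. Every tau library was above every WT library, a log2 change of 1.24 ± 0.17 (SE), or 2.37-fold. Its satellite peak7951 had 1.83, 2.18 and 4.97 CPM in tau and 1.15, 1.75 and 0.98 CPM in WT libraries. These groups did not overlap either, but the change of 1.24 ± 0.44 was not called, resting on 6 to 27 reads per library. It was called in 5 of 13 alternatives, over which it ran from 0.28 to 1.53. The change was 0.63 without tau replicate 3 and 1.53, then called, without tau replicate 1.

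At peak7946, the first of the broad chromosome 3 domains, levels were 23.5, 17.2 and 25.8 CPM in tau and 12.2, 11.7 and 15.3 CPM in WT libraries (log2 0.78 ± 0.15). At peak7948 they were 22.3, 19.1 and 26.9 CPM in tau and 14.8, 14.0 and 13.2 CPM in WT libraries (log2 0.71 ± 0.14). At peak7947 they were 34.5, 31.0 and 40.3 CPM against 20.8, 22.6 and 25.5 CPM (log2 0.63 ± 0.11). Tau replicate 3 was the highest and tau replicate 2 the lowest of the tau libraries at each of these domains, and none overlapped with WT. The satellite peak7949 ranged from 0.73 to 4.42 CPM in tau and 0.81 to 1.94 CPM in WT libraries, with overlap and no call (log2 1.00 ± 0.45). Without tau replicate 2 it was 1.37 and called, and without tau replicate 3 it was 0.39.

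On chromosome 5, peak12185 held 10.2, 6.54 and 13.6 CPM in tau and 5.77, 4.86 and 5.53 CPM in WT libraries (log2 0.93 ± 0.22). Levels at peak12184 were 5.29, 4.36 and 6.62 CPM against 2.97, 2.72 and 2.60 CPM (log2 0.98 ± 0.29). Both were called, at 1.91-fold and 1.98-fold, from 14 to 74 reads per library, and the groups did not overlap at either. Tau replicate 3 was again the highest. Without it the call ended at both domains, and 4 of the 10 domains were called in all, while calls over all domains went from 5273 to 3452.

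The last domain of the chromosome 3 interval behaved otherwise. Levels at peak7952 were 36.0, 41.7 and 42.1 CPM in tau and 33.1, 33.5 and 35.1 CPM in WT libraries. Tau and WT libraries were parted here too, yet the change was small and not called (log2 0.23 ± 0.10). At the first domain, peak7945, the groups overlapped (2.56 to 4.604 against 2.28 to 3.70 CPM; log2 0.35 ± 0.32).

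**Figure D1:**
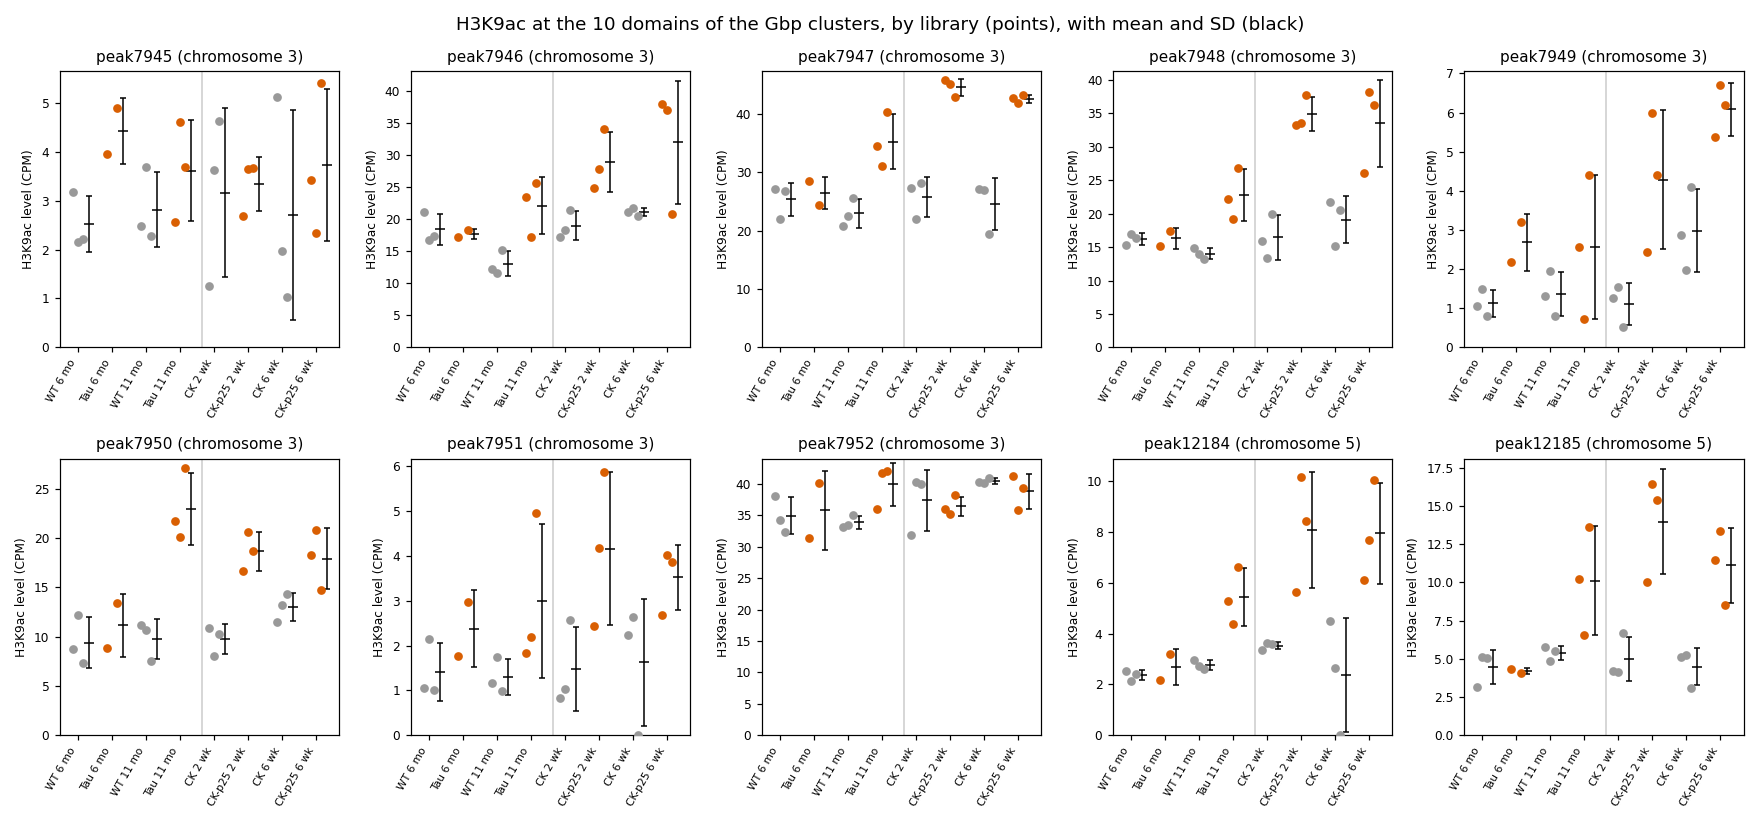
H3K9ac level in CPM (y axis, from 0, scaled per panel) of each of the 10 domains in the 8 groups (x axis), with 1 point per library and the mean ± SD in black; grey marks controls, orange the disease models, and the vertical line parts both series. At peak7947 the CK-p25 libraries sit between 41.9 and 45.8 CPM and the CK libraries between 19.5 and 28.2 CPM, while at peak7952 the groups lie close together.

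Libraries of tau mice at 11 months also had lower cross correlation, a value that the labels give per library and that commonly serves as a measure of ChIP enrichment. It was 0.206 to 0.257, against 0.296 to 0.342 in WT libraries, while in the other 3 comparisons the ranges of model and control overlapped. With this measure as a covariate 1 of the 10 domains was called, peak7950 at 1.35 ± 0.37, while calls over all domains went from 5273 to 695. The change at peak7946 was then 0.81 ± 0.32, at peak7948 0.81 ± 0.31, at peak7947 0.51 ± 0.25 and at peak12185 1.29 ± 0.49. At the ends of the chromosome 3 interval the direction turned, to -0.13 ± 0.21 at peak7952 and -0.60 ± 0.71 at peak7945. Genotype and cross correlation cannot be told apart at this age, since the groups do not overlap in it.

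At 6 months no Gbp domain was called between tau and WT mice. In edgeR 0 of 10 domains passed, as did 0% of all domains, and DESeq2 called 0. The unadjusted edgeR p was under 0.05 at 2 of 10, and at 1426 of all 44105 domains tested. The chromosome 3 sum was 109 and 125 CPM in tau and 116, 108 and 104 CPM in WT libraries. The chromosome 5 sum was 6.51 and 7.23 CPM in tau and 5.72, 7.29 and 7.48 CPM in WT libraries. These groups overlapped at both clusters.

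At peak7950 the younger tau libraries held 8.88 and 13.4 CPM and the WT libraries 8.69, 12.2 and 7.27 CPM (log2 0.24 ± 0.22). At peak7947 they held 28.4 and 24.5 CPM against 27.1, 22.1 and 26.9 CPM (log2 0.06 ± 0.14). At peak7948 and peak7946 the changes were 0.01 ± 0.17 and -0.06 ± 0.17, and at peak12184 and peak12185 0.17 ± 0.40 and -0.09 ± 0.32. The groups were parted at 2 of 10 domains, both narrow, against 9.63% of all domains with tau higher. These were peak7945 (3.95 and 4.89 against 2.14 to 3.18 CPM; log2 0.81 ± 0.36) and peak7949 (2.17 and 3.19 against 0.81 to 1.501 CPM; log2 1.24 ± 0.54).

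The tau effect was called more positive at 11 than at 6 months at 3 of the 10 domains (edgeR, on the difference itself), where 1.02% of all domains were called in this direction and 3.21% in the other. They were peak7946 (difference 0.83 ± 0.22 on the log2 scale), peak7948 (0.70 ± 0.22) and peak7950 (1.00 ± 0.28). At peak12185 the difference was 1.02 ± 0.39 and at peak7947 0.57 ± 0.18, neither called. With cross correlation as a covariate 0 of the 10 were called, while calls over all domains went from 1864 to 412. DESeq2 called 0 as well, and 989 over all domains, but gave no adjusted p for 5 of the 10. Leaving out 1 library gave 0 to 5, and 949 to 2572 over all domains. Without tau replicate 3 at 11 months, or tau replicate 1 at 6 months, the number was 0, and without WT replicate 2 at 11 months or WT replicate 1 at 6 months it was 1. Without tau replicate 2 at 11 months it was 5.

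In CK-p25 mice 2 weeks after induction, H3K9ac was higher at both clusters. The chromosome 3 sum was 164, 176 and 186 CPM in CK-p25 and 106, 108 and 128 CPM in CK libraries. The chromosome 5 sum was 15.7, 26.6 and 23.9 CPM in CK-p25 against 7.54, 7.74 and 10.3 CPM in CK libraries. The groups did not overlap at either cluster, with log2 ratios of 0.62 and 1.37.

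At 2 weeks 7 of the 10 domains were called higher and 0 lower, where 1.51% of all 38193 domains tested were called higher and 0.613% lower. At the same 7 domains the groups did not overlap, against 8.25% of all domains. The median log2 change over the 10 was 1.05, and over all domains it was -0.004. The number called was 4 without CK replicate 1 and 3 without CK replicate 2. It was 4 without the second or the third CK-p25 library, and DESeq2 called 4. In these runs, in the same order, calls over all domains went from 811 to 695, 419, 422, 501 and 293.

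On chromosome 3, peak7948 held 33.3, 33.6 and 37.8 CPM in CK-p25 and 15.9, 13.4 and 20.002 CPM in CK libraries (log2 1.13 ± 0.17, 2.19-fold). At peak7947 levels were 45.8, 45.1 and 43.0 CPM against 27.2, 21.9 and 28.2 CPM (log2 0.83 ± 0.14). At peak7950 they were 16.6, 20.6 and 18.7 CPM against 10.9, 8.003 and 10.3 CPM (log2 0.98 ± 0.21). All CK-p25 libraries were above all CK libraries at these domains.

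Levels at peak7946 were 24.95, 27.9 and 34.1 CPM in CK-p25 and 17.2, 18.3 and 21.5 CPM in CK libraries (log2 0.60 ± 0.17). The satellite peak7949 was called too, at 2.45, 6.00 and 4.41 CPM against 1.26, 1.55 and 0.51 CPM (log2 1.77 ± 0.49). That rests on 1 to 6 reads per CK library. The other satellite, peak7951, was at 1.53 ± 0.53 with overlapping groups and no call. At peak7952 the change was -0.05 ± 0.13 and at peak7945 0.06 ± 0.43, so neither end of the interval was called.

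The chromosome 5 domains had larger log2 changes than the broad domains of chromosome 3, a difference that was not tested. At peak12185 levels were 10.03, 16.4 and 15.4 CPM in CK-p25 and 4.19, 4.13 and 6.67 CPM in CK libraries (log2 1.52 ± 0.27, 2.87-fold). At peak12184 they were 5.63, 10.2 and 8.45 CPM against 3.35, 3.61 and 3.59 CPM (log2 1.17 ± 0.33). At both, replicate 1 was the lowest of the CK-p25 libraries and still above every CK library.

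At 6 weeks after induction both clusters were again higher in CK-p25 mice. The chromosome 3 sum was 178, 187 and 170 CPM in CK-p25 and 132, 124 and 121 CPM in CK libraries, and the chromosome 5 sum 17.6, 21.1 and 18.5 CPM against 9.60, 7.90 and 3.08 CPM. Neither cluster overlapped between the groups, with log2 ratios of 0.50 and 1.48. The chromosome 5 ratio rests on few reads, 30, 12 and 3 over both domains in CK replicates 1, 2 and 3. Of the 10 domains 4 were called higher and 0 lower, where 1.32% of all domains were called higher and 1.33% lower. The groups did not overlap at 7 of 10, against 8.81%.

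The called domains were peak7946, peak7947, peak7948 and peak12185. At peak7947 levels were 42.7, 41.9 and 43.3 CPM in CK-p25 and 27.2, 27.0 and 19.5 CPM in CK libraries (log2 0.73 ± 0.16). At peak7948 they were 26.1, 38.2 and 36.3 CPM against 21.8, 15.1 and 20.5 CPM (log2 0.72 ± 0.18). At peak7946 they were 38.0, 37.2 and 20.9 CPM against 21.1, 21.7 and 20.5 CPM (log2 0.70 ± 0.18). CK-p25 replicate 3, the second shallowest library at 1.31 M reads, lay within the CK range at peak7946 and outside it at peak7947 and peak7948.

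At peak12185 levels were 11.5, 13.4 and 8.50 CPM in CK-p25 and 5.12, 5.27 and 3.08 CPM in CK libraries (log2 1.27 ± 0.32). The CK levels rest on 16, 8 and 3 reads. This domain was not called in DESeq2, without CK replicate 1 or without CK-p25 replicate 2. At peak12184 the change was of like size but not called, at 6.09, 7.70 and 10.05 CPM against 4.48, 2.63 and 0 CPM (log2 1.22 ± 0.40). The 0 belongs to CK replicate 3, the shallowest library at 0.996 M reads, where a count of 0 allows up to 3.08 CPM, taking 3 counts as the limit. Without CK replicate 1, which leaves this library and 1 other as controls, the change was 2.19 ± 0.62 and was called. At peak7950 the groups were parted without a call (18.3, 20.8 and 14.7 against 11.5, 13.2 and 14.4 CPM; log2 0.56 ± 0.23). At peak7952 the change was -0.05 ± 0.14.

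Leaving out both of these shallow libraries left 3 of the 10 domains called at 6 weeks. Without CK-p25 replicate 2 the number was 1. DESeq2 called 2 of the 6 domains for which it gave an adjusted p. In these runs, in the same order, calls over all domains went from 1011 to 400, 1081 and 451. In the test of the difference between 2 and 6 weeks 0 of 10 domains passed in edgeR, where 0.00524% of all domains did. None of the 10 had an unadjusted edgeR p under 0.05, where 1817 of all 38193 domains tested did, and DESeq2 called 0. The differences ran from -0.75 at peak7951 to 0.10 at peak7946, with a standard error of 0.25 at peak7946 and of 0.81 at peak7951. At peak7948 the difference was -0.40 ± 0.25 and at peak7950 -0.42 ± 0.32, neither of them called.

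**Figure D2:**
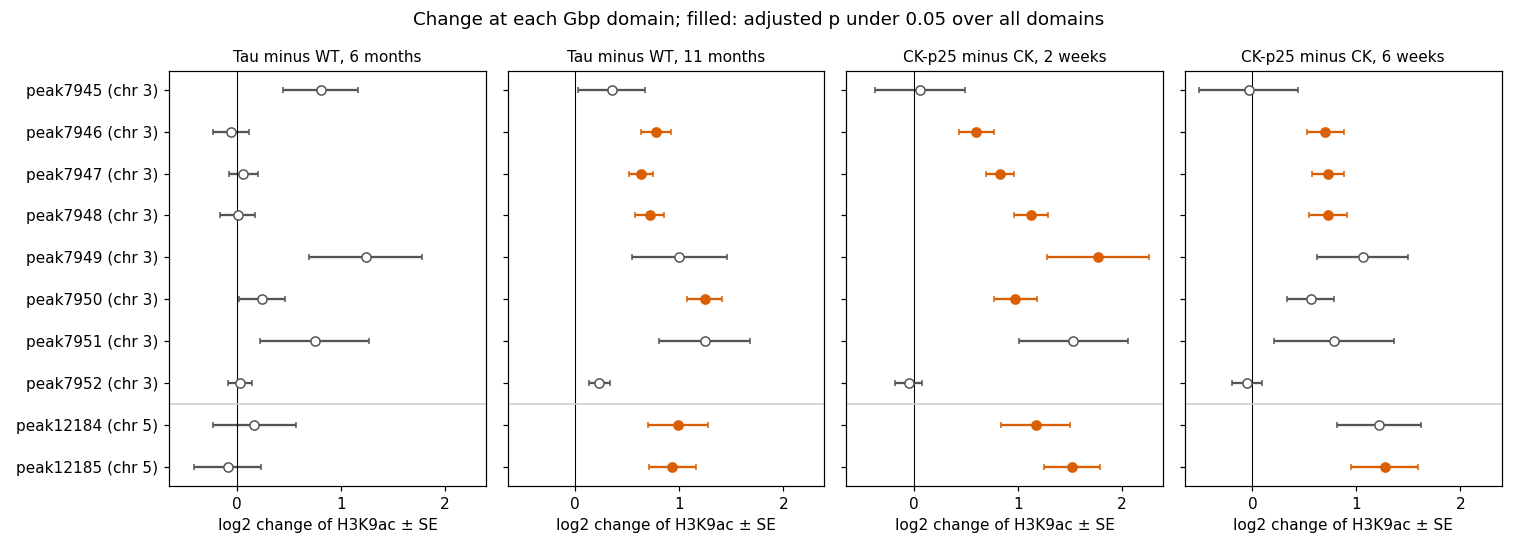
Log2 change of H3K9ac (x axis, with SE as bars) at each of the 10 domains (y axis) in the 4 comparisons of disease model and control; filled orange points passed an adjusted p of 0.05 over all domains. At 6 months no point is filled, and peak7945, peak7951 and peak7952 are open in every panel.

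Control groups were also set against each other, to see whether the clusters moved without the disease models. Since the intervals were selected on values of these data, these too are descriptions. Between WT mice of 6 and 11 months 0 of 10 domains passed in edgeR, where 1.45% of all domains did. Of the 10, peak7946 alone had an unadjusted edgeR p under 0.05, where 5285 of all 44105 domains tested did. DESeq2 called 0 while giving no adjusted p for 4. The groups did not overlap at 1 domain with the older WT mice higher and at 2 with them lower, against 9.47% and 8.75% of all domains. At peak7946 WT levels were 18.4 ± 2.41 CPM (SD, n = 3) at 6 months and 13.0 ± 1.95 CPM (n = 3) at 11 months (log2 -0.49 ± 0.15). With the WT groups fitted alone this domain was called, and calls over all domains went from 638 to 1164. Cross correlation also parted the WT groups, at 0.242 to 0.248 at 6 months and 0.296 to 0.342 at 11 months. With it as a covariate 0 of the 10 domains were called, and calls over all domains went from 638 to 69. Age, sex and cross correlation cannot be told apart between these groups. Mean tau levels at peak7946 were 17.7 ± 0.79 CPM (n = 2) at 6 months and 22.2 ± 4.44 CPM (n = 3) at 11 months. Tau libraries of both ages overlapped there, and the change between tau ages was not tested. How far the WT and the tau level each enter the larger tau effect at 11 months was not tested either. At peak7948, also parted with the older WT mice lower, WT levels were 16.2 ± 0.85 CPM at 6 months and 14.0 ± 0.83 CPM at 11 months (n = 3 each, log2 -0.21 ± 0.15). At peak7950 WT levels were 9.39 ± 2.55 CPM at 6 months and 9.79 ± 2.02 CPM at 11 months (n = 3 each; log2 0.06 ± 0.20).

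Between CK mice 2 and 6 weeks after induction 0 of 10 domains passed in edgeR, where 0.00262% of all domains did. Only peak7949 had an unadjusted edgeR p under 0.05, where 2103 of all 38193 domains tested did, and DESeq2 called 0. No overlap was seen at 2 domains, with 6 weeks higher, and at 0 with 6 weeks lower, against 5.00% and 5.68% of all domains. Of the log2 changes 9 of 10 were positive, from 0.003 at peak12185 to 1.20 ± 0.60 at peak7949. At peak7950 CK levels were 9.72 ± 1.52 CPM at 2 weeks and 13.0 ± 1.42 CPM at 6 weeks (n = 3 each; log2 0.41 ± 0.26), and the groups did not overlap.

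In order of the chromosome 3 sum in the tau series, WT mice at 11 months were lowest at 99.1 ± 1.88 CPM (SD, n = 3). WT mice at 6 months followed at 109 ± 5.83 CPM (n = 3), tau mice at 6 months at 117 ± 11.3 CPM (n = 2) and tau mice at 11 months at 152 ± 20.3 CPM (n = 3). Libraries of both 6-month groups overlapped. All WT libraries at 11 months lay below them, and all tau libraries at 11 months lay above every other library of the series. In the CK-p25 series the order was CK at 2 weeks (114 ± 11.8 CPM), CK at 6 weeks (126 ± 5.81 CPM), CK-p25 at 2 weeks (175 ± 10.8 CPM) and CK-p25 at 6 weeks (178 ± 8.44 CPM), with n = 3 each. Neighbours in this order overlapped except CK at 6 weeks and CK-p25 at 2 weeks.

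From peak7946 to peak7951, the inner stretch of the chromosome 3 interval, log2 changes were between 0.56 and 1.77 at 11 months, 2 weeks and 6 weeks. At the ends of the interval, peak7945 and peak7952, they were between -0.05 and 0.35. The nearest domains outside it, peak7944 (142056857 to 142059336) and peak7953 (142427554 to 142429426), were at 0.14 ± 0.09 and 0.07 ± 0.07 at 11 months, 0.32 ± 0.12 and -0.07 ± 0.10 at 2 weeks and 0.32 ± 0.13 and 0.10 ± 0.11 at 6 weeks. On chromosome 5 the nearest domain to the left, peak12183 (105288774 to 105289402), was at 0.45 ± 0.22, 0.58 ± 0.38 and 0.66 ± 0.42 in the same order. To the right, peak12186 (105827599 to 105827769) was at 0.37 ± 0.44 at 11 months and did not pass the filter on low counts in the CK-p25 series. No domain outside was called, but some were parted with the model higher: peak12183 at 11 months, peak7944 at 2 weeks and peak7953 at 6 weeks. At 6 months peak7944 was parted with tau lower. The inner domains of chromosome 3 were then between -0.06 and 1.24, with peak7945 at 0.81 and peak7952 at 0.03.

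**Figure D3:**
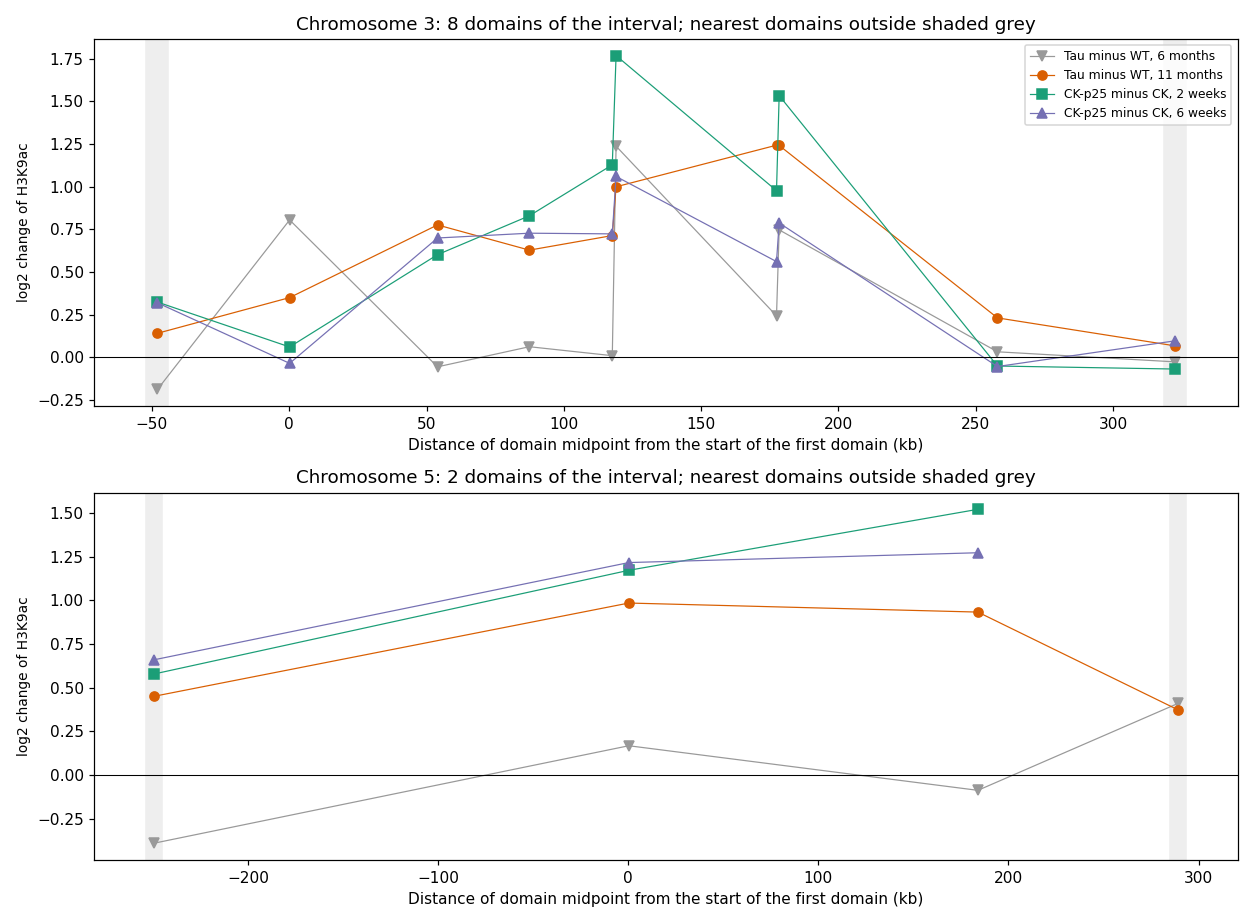
Log2 change of H3K9ac (y axis) at each domain by distance of its midpoint from the start of the first domain of the interval in kb (x axis), for chromosome 3 (top) and chromosome 5 (bottom); colours give the 4 comparisons, lines join the points of one comparison, and grey bands mark the nearest domains outside the interval. On chromosome 3 the points of 11 months, 2 weeks and 6 weeks lie between 0.56 and 1.77 from peak7946 to peak7951 and between -0.05 and 0.23 at peak7952.

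Other domains of the genome whose levels followed those of the Gbp domains most closely were sought among 25665 domains with a mean of at least 5 CPM in each series, by Pearson's r of log2 CPM taken as its deviation from the mean of its own series. For peak12185 they were chromosome 14 from 56222081 to 56224150 (r = 0.942 over 23 libraries), chromosome 11 from 119253564 to 119256253 (r = 0.927) and chromosome 5 from 115346882 to 115348607 (r = 0.919). Chromosome 6 from 121194991 to 121197321 and chromosome 8 from 74060086 to 74062352 followed, both at r = 0.914. For peak7952, the domain of highest level on chromosome 3, the closest was chromosome X from 100144372 to 100145531 at r = 0.794. For peak7947, added after its values were seen, the closest was the same chromosome 14 domain at r = 0.945, followed by chromosome 16 from 92695463 to 92696624 at r = 0.942 and chromosome 11 from 48682057 to 48686814 at r = 0.934. The libraries share group, depth and scaling, so these values include the group differences.

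For comparison, a pair of other regions named for interferon-induced genes was summed in the same way, the Trim30 region of chromosome 7 (8 domains) and the Ifit region of chromosome 19 (24 domains). The names are labels only, since no domain of these regions was tied to a gene. Medians and counts cover every tested domain of a region, which may include domains away from the named genes. They are therefore not the response of the Trim30 or Ifit genes themselves. In tau mice at 11 months the median log2 change of tested domains was 1.29 in the chromosome 7 region and 0.52 in the chromosome 19 region, beside 0.85 at the Gbp domains. In CK-p25 mice it was 1.27, 0.50 and 1.05 at 2 weeks and 1.10, 0.34 and 0.73 at 6 weeks, in the same order of regions. At 6 months it was -0.02, -0.04 and 0.11. Called higher at 11 months were 7 of 8, 9 of 23 tested and 6 of 10 domains, where 4.40% of all domains were. Like the Gbp intervals, both regions were chosen with earlier results of these data known, so nothing is read from these counts. Differences between the regions were not tested.

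**Figure D4:**
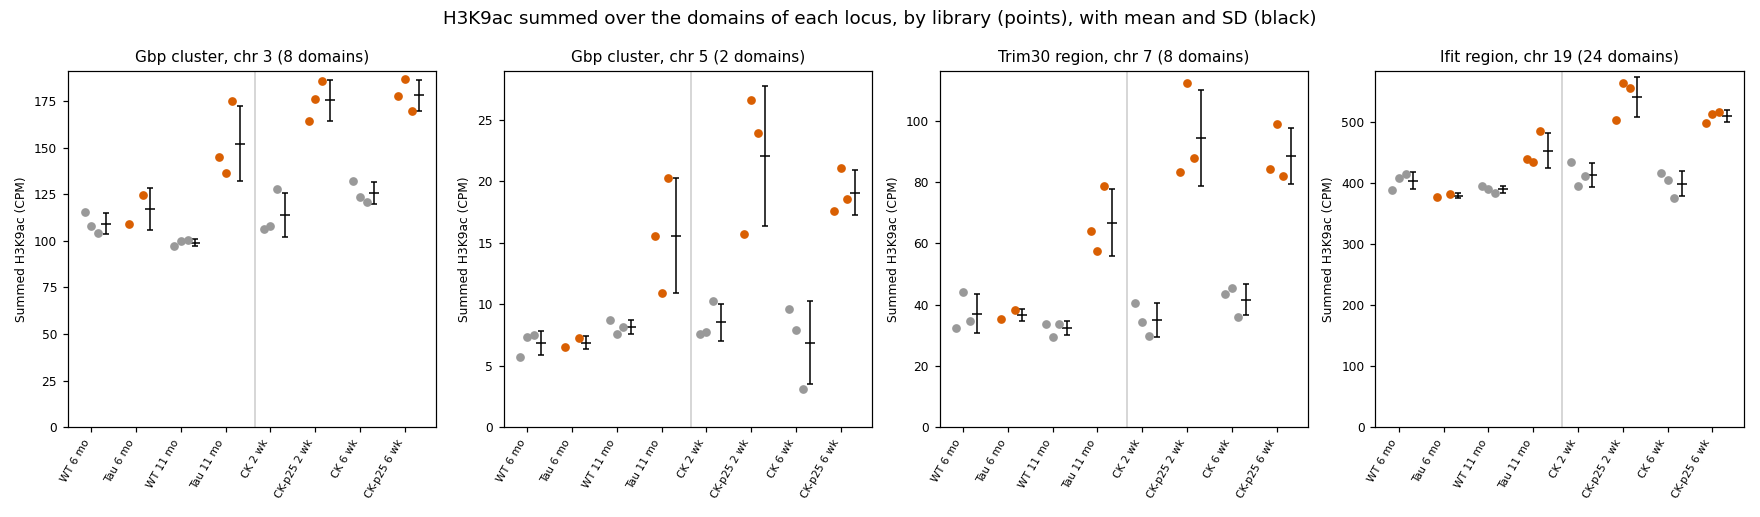
H3K9ac summed over the domains of each region in CPM (y axis, from 0, scaled per panel) in the 8 groups (x axis), with 1 point per library and the mean ± SD in black; grey marks controls and orange the disease models. In the chromosome 3 Gbp cluster tau libraries at 11 months lie between 137 and 175 CPM and WT libraries between 97.0 and 100.6 CPM, while both 6-month groups lie between 104 and 125 CPM.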

How the data were processed

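H3K9ac ChIP-seq libraries of mouse hippocampus were analysed from the deposited matrix of raw read counts per domain, without normalization, and the deposited list of 44165 domains, whose score column is 0 in every row. BWA, Picard and MACS2 with mm9 are the tools and build in the submitters' processing notes. Per the series' design text input DNA served in domain calling; the 22 input libraries have no count column and were not analysed here. Sequencing was single-end (per the labels' protocols), and the limit of a count of 0 reflects counting error alone. Aligner settings and the treatment of multiply mapped reads are not given in the sources used here.

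Counts of all domains were fitted with edgeR 4.0.16 in R 4.3.3 (quasi-likelihood F test, robust, TMM factors, filterByExpr by group, one mean per group). Antibody lots differed, so the 11 tau series libraries and the 12 CK-p25 series libraries were fitted apart. P-values were adjusted by Benjamini-Hochberg across every domain in a fit, at a threshold of 0.05. SE is the log2 change over the square root of F. Described one by one are members called in at least 1 of the 4 comparisons and the 2 of highest mean CPM per cluster; the others are given by range or briefly. Members and lists were chosen with earlier results of these data known. Likeness used log2 CPM with a prior count of 2. Fits were run on simulated counts of a single fixed dispersion, with changes set only at domains averaging more than 20 reads. That run does not cover changes at Gbp domains with fewer reads. The 22 replicate pairs differed by more than sampling noise (chi-square per degree of freedom 1.10 to 1.88 over domains with at least 20 reads). Alternatives were other scalings, no filter, DESeq2 1.42.0, a threshold of 0.01, a replicate block, cross correlation as a covariate, compared groups alone and each library left out. Leaving out both shallow 6-week libraries was added after seeing the data. Motifs were searched in Python 3.11.15.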

Additional observations from a re-analysis of the deposited data

Results flagged for a closer look

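The difference of the tau effect between 6 and 11 months was called by edgeR at 3 Gbp domains of chromosome 3. These intervals were selected on values of the same data, so this is a description. None of the 3 was called at a threshold of 0.01, with cross correlation as a covariate, or without tau replicate 3 at 11 months or tau replicate 1 at 6 months. The difference was 0.832 on the log2 scale at peak7946, 0.704 at peak7948 and 1.00 at peak7950, with the larger effect at 11 months in each. At peak7946 and peak7948 WT levels were also lower at 11 than at 6 months, without overlap. Since sex changed along with age (females at 6 months, males at 11 months), their parts cannot be told apart. Cross correlation of the WT libraries was also parted between these ages, so its part cannot be told apart either. Groups of 2 or 3 libraries were too small to look for single libraries that stand apart from their group.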

How the results depend on the processing

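All 17 calls of Gbp domains in the 4 comparisons kept their sign in every alternative run, and 5 of them were called in every one: peak7950 at 11 months, peak7947, peak7948 and peak12185 at 2 weeks, and peak7947 at 6 weeks. With cross correlation as a covariate the number called at 11 months went from 6 to 1 (over all domains from 5273 to 695), and the number for the difference of the tau effect between ages from 3 to 0 (over all domains from 1864 to 412). That difference also went to 0 at a threshold of 0.01 and to 0 in DESeq2, which gave no adjusted p for 5 of the 10. Over all domains these runs called 1037 and 989. At 2 weeks the threshold of 0.01 and DESeq2 each left 4 of 7 domains, and at 6 weeks each left 2 of 4, with no DESeq2 adjusted p for 4 of the 10. Over all domains they called 472 and 293 at 2 weeks, against 811 in the main fit. At 6 weeks they called 476 and 451, against 1011. With WT groups fitted alone 1 domain, peak7946, was lower at 11 than at 6 months, against 0 in the fit of all groups. Over all domains 1164 were called, against 638. Leaving out 1 library gave 4 to 8 domains at 11 months, 3 to 7 at 2 weeks, 1 to 4 at 6 weeks, 0 to 5 for the difference between ages and 0 in the other comparisons. Over all domains these runs called 3452 to 5894 at 11 months (5273 in the main fit) and 419 to 979 at 2 weeks (811). They called 478 to 1081 at 6 weeks (1011) and 949 to 2572 for the difference between ages (1864). The cause of these changes was not tested, except that a stricter threshold calls fewer domains by construction. The replicate numbers share only a number: deviations of same-numbered libraries correlated at -0.016 to 0.076. With a replicate block 6, 7 and 4 domains were called at 11 months, 2 weeks and 6 weeks, 0 at 6 months, and 2 for the difference between ages. Among alternative values of single log2 changes of the domains described one by one, 443 differed from the main value by less than the spread between replicates. The other 4 differed by more. Leaving out 1 library can hardly move a group mean by more than this spread, so the count cannot show how well the changes hold. Whether a call was kept did not enter this count. Values at the threshold of 0.01 equal the main values by construction and are among the 443. The 3 narrowest domains, peak7945, peak7949 and peak7951, held few reads, 0 to 27 per library. Counts were also low at the chromosome 5 domains, 0 to 39 reads per library at peak12184 and 3 to 74 at peak12185.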
